A study of Rattus norvegicus with 6 samples.

Results

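The cation-chloride cotransporters of the SLC12 family and the WNK kinases that control them were described here in the kidneys of rats on a normal or a hyperammonemic diet. They comprised 9 genes of the 17051 genes listed for each rat: the cotransporter genes Slc12a1, Slc12a2, Slc12a3, Slc12a4 and Slc12a7, the WNK kinase genes Wnk1 and Wnk4, and the genes of their downstream kinases, Stk39 and Oxsr1. The 9 genes were chosen by symbol, with measured values of this same diet comparison already known. Their differences between the diets are therefore given as a description, and results of tests over all genes are not read as evidence for them. All 9 passed the filter on low counts, which kept 11553 genes by asking that some rat reach an estimated count of 30.

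Kidney RNA was sequenced from 6 male Sprague Dawley rats, an outbred strain without any genetic modification in the labels, 3 in each group, and the age of the rats is not given in the sources used here. The AL group (rats 61, 71 and 88) ate standard chow ad libitum. The HD group (rats 64, 67 and 69) received the hyperammonemic diet, chow powder with an amino acid mixture composed like hemoglobin, in a daily amount of 3 g of the mixture per kg of body weight. Feeding lasted 7 days in both groups, and all rats then underwent surgery under isoflurane anesthesia. Each library was made from poly(A)-selected RNA of 1 rat, from kidney tissue with no separation of cortex and medulla stated. Total counts lay between 12499938 (rat 64) and 30466453 (rat 69), and the scaling factors of the TMM method lay between 0.943 and 1.1. Levels are given as CPM, a gene's counts per megacount of its library after this scaling, and, where genes are compared with each other, as TPM, which is corrected for transcript length.

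SLC12 proteins move chloride across the cell membrane together with sodium, potassium or both. In the nephron, NKCC2 (Slc12a1) takes up sodium, potassium and chloride on the luminal side of the thick ascending limb and is the target of loop diuretics. NCC (Slc12a3) takes up sodium and chloride in the distal convoluted tubule that follows, and is the target of thiazides. WNK kinases phosphorylate SPAK (Stk39) and OSR1 (Oxsr1), which in turn phosphorylate the cotransporters, switching on the sodium-driven carriers and switching off the potassium-chloride carriers.

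In rn5, the genome build of the deposited files, Slc12a1 lies on the plus strand of chromosome 3 from 123945415 to 124022078 in 27 exons, and Slc12a3 on the minus strand of chromosome 19 from 11084193 to 11122657 in 26 exons. Slc12a4 shares chromosome 19 with Slc12a3 (48784051 to 48805888), and Stk39 shares chromosome 3 with Slc12a1 (60973443 to 61244306). The other members lie on chromosome 18 (Slc12a2, 52104434 to 52172618), chromosome 1 (Slc12a7, 33511432 to 33564814), chromosome 4 (Wnk1, 219537467 to 219662981), chromosome 10 (Wnk4, 88979749 to 88996599) and chromosome 8 (Oxsr1, 127127110 to 127216712). No exon of the 9 genes overlapped an exon of another listed gene on either strand.

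The sequences just upstream of Slc12a3 and Slc12a1 are shown because these genes differed most between the diets among the 9 and in opposite directions. Each is the run of 250 bases before the RefSeq transcription start in build GRCr8, written 5′ to 3′ on the strand of the gene. It comes from chr19:10675051-10675300 (minus strand) for Slc12a3 and from chr3:132859340-132859589 (plus strand) for Slc12a1. RefSeq lists 2 starts for Slc12a1, and the window of the more upstream start is printed. Capitals mark matches to the searched motifs.
Slc12a3: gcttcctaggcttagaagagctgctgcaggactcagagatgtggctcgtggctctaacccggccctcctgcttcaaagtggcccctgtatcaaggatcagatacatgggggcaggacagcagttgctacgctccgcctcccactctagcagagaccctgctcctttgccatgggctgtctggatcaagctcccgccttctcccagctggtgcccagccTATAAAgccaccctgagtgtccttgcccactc
Slc12a1: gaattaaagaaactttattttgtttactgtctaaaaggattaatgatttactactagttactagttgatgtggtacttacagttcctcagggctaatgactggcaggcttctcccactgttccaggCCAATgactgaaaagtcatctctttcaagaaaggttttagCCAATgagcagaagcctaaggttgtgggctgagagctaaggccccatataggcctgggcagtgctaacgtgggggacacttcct

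The Slc12a3 window held 1 TATA box (TATAAA), beginning 32 bases before the start, a motif found in 12.9% of the 33469 rat promoter windows of the same length. The Slc12a1 window held 2 CCAAT boxes (CCAAT), 124 and 84 bases before the start, and 34% of all windows held at least 1. Neither window held a GC box (GGGCGG, 30.5% of all windows). A cyclic AMP response element (TGACGTCA, 1.59%), an E box (CACGTG, 5.59%), a steroid receptor half-site (AGAACA, 17.5%) and an HNF1 half-site (GTTAAT, 6.45%) were not found in either window. Both strands were searched, and the matches shown do not overlap each other. The share of G and C was 59.2% upstream of Slc12a3 and 43.6% upstream of Slc12a1, beside a median of 51.2% over all windows. These matches describe the letters of the windows and say nothing of factors bound there.

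Slc12a3 had the largest difference between the diets among the 9 genes, and every HD rat lay above every AL rat. It was measured at 27.5, 18.1 and 27.2 CPM in rats 61, 71 and 88 of the AL group. Rats 64, 67 and 69 of the HD group gave 287, 51.4 and 216 CPM. The 3 AL rats were close together, while rats 64 and 69 stood far above rat 67, which was itself above the AL range. The group means were 24.3 ± 5.34 CPM for AL and 185 ± 121 CPM for HD (SD, *n* = 3), a ratio of 7.61. The log2 fold change fitted by edgeR was 2.93 with a standard error of 0.58. The highest HD rat was 5.57 times the lowest HD rat, against 1.52 times within the AL group. Leaving out single rats gave log2 fold changes between 2.47 (without rat 64) and 3.37 (without rat 67).

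Slc12a1, the most abundant of the 9 genes in both groups, was lower in every HD rat than in every AL rat. Its levels were 2517, 1744 and 1703 CPM in rats 61, 71 and 88, and 676, 1042 and 1562 CPM in rats 64, 67 and 69. Rat 69 came close to the AL range, and rat 64, which had the highest Slc12a3 level, had the lowest Slc12a1 level. The means were 1988 ± 459 CPM for AL and 1093 ± 445 CPM for HD (SD, *n* = 3), which gives an HD level of 0.55 times the AL level. The edgeR log2 fold change was -0.86 with a standard error of 0.31, and it lay between -1.21 (without rat 69) and -0.61 (without rat 64) when single rats were left out. In RNA of whole tissue, fewer cells of a type and less RNA per cell cannot be told apart.

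**Figure D1:**
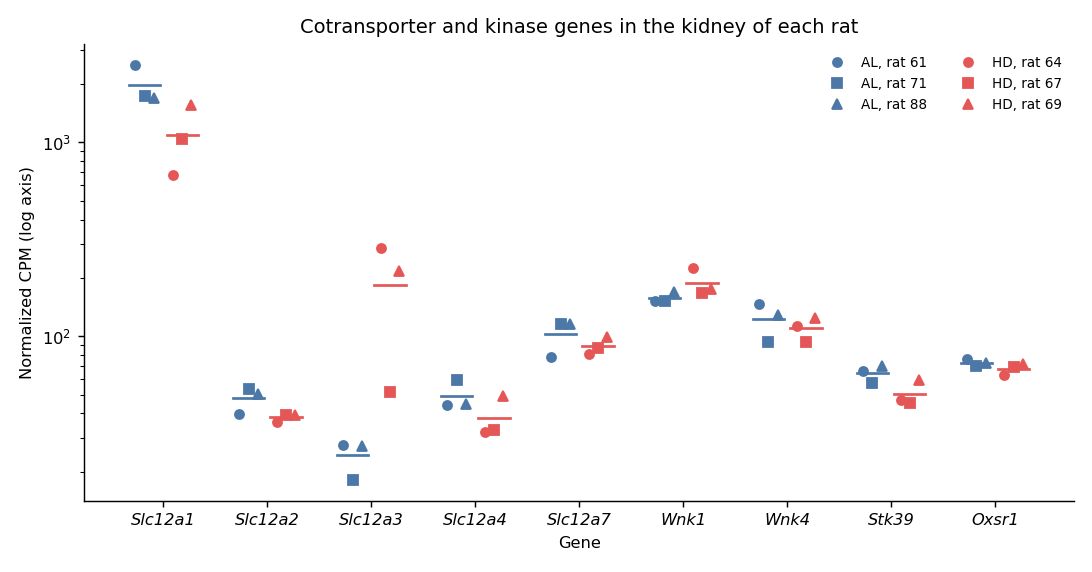
Normalized CPM (log axis) of the 9 genes in each of the 6 rats, with AL rats in blue, HD rats in red and the group mean as a line. Slc12a3 lies between 18.1 and 27.5 CPM in the AL rats and between 51.4 and 287 CPM in the HD rats, while the groups of the 4 kinase genes overlap.

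The balance of the 2 cotransporters was compared within each rat, which needs no scaling between libraries. For each count of Slc12a3, rats 61, 71 and 88 of the AL group had 91.4, 96.3 and 62.6 counts of Slc12a1. Rats 64, 67 and 69 of the HD group had 2.36, 20.3 and 7.22. The groups did not overlap, and the HD rats were spread far more widely than the AL rats. On the log2 scale the ratio of Slc12a3 to Slc12a1 was -6.36 ± 0.34 for AL and -2.81 ± 1.55 for HD (SD, *n* = 3). The difference of 3.55 lay between 2.76 (without rat 64) and 4.31 (without rat 67) when single rats were left out.

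**Figure D2:**
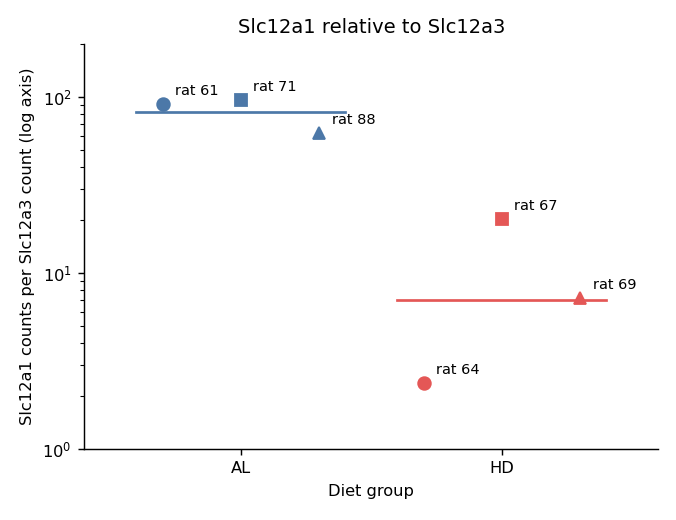
Counts of Slc12a1 for each count of Slc12a3 in every rat (log axis), with the geometric mean of each diet group as a line. The AL rats lie between 62.6 and 96.3 and the HD rats between 2.36 and 20.3.

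Corrected for transcript length, the order of the 9 genes differed between the groups mainly by the place of Slc12a3. In the AL group, Slc12a1 was highest at 675 ± 96.6 TPM and was followed by Wnk4 at 47.1 ± 6.64 TPM, whose range began just above that of the next gene (39.4 against 39.3 TPM). Slc12a7 (32.8 ± 9.29 TPM), Stk39 (30.4 ± 2.75 TPM), Wnk1 (27.4 ± 3.04 TPM), Oxsr1 (25.4 ± 1.27 TPM) and Slc12a4 (21.2 ± 5.60 TPM) came next, and each overlapped its neighbor in this order. Slc12a2 (11.9 ± 2.76 TPM) and Slc12a3 (9.06 ± 1.52 TPM) stood last and overlapped each other. In the HD group, Slc12a3 stood second at 66.9 ± 43.5 TPM, behind Slc12a1 at 362 ± 167 TPM, and its range of 17.7 to 100 TPM overlapped that of Wnk4 at 40.7 ± 7.76 TPM (SD, *n* = 3 throughout). The other 6 genes followed, from Wnk1 at 31.2 ± 4.94 TPM down to Slc12a2 at 8.94 ± 0.80 TPM, and of these neighbors only Slc12a4 (15.6 ± 4.93 TPM) and Slc12a2 did not overlap.

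The transcripts of Slc12a1 differed in their share of the gene's counts. The gene is known for mutually exclusive cassette exons that encode part of a membrane-spanning stretch, and the resulting variants differ in their affinity for chloride and in where along the thick ascending limb they are made. The files list 3 transcripts: 2 coding transcripts, alike except for a 96-base cassette exon, and a noncoding transcript with another first exon and the upstream cassette. The upstream cassette lies at 123959114 to 123959209 and the downstream cassette at 123959671 to 123959766 on chromosome 3 of rn5, each as the fifth exon of its transcript. Further variants known for this gene have no transcript of their own in the files, so which letter name of the literature each listed transcript carries was not assigned here.

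The coding transcript with the downstream cassette held 60.7%, 70.4% and 67.5% of the Slc12a1 counts in rats 61, 71 and 88 of the AL group. It held 14.4%, 51.3% and 43.7% in rats 64, 67 and 69 of the HD group. Every HD rat was below every AL rat, with rat 64 far below the others. The mean share was 66.2 ± 4.98% for AL and 36.5 ± 19.5% for HD (SD, *n* = 3), a difference of -29.7 percentage points, which was -18.7 without rat 64. Expressed as CPM, this transcript was at 1528, 1228 and 1149 in rats 61, 71 and 88, and at 97.5, 534 and 683 in rats 64, 67 and 69, again without overlap. The coding transcript with the upstream cassette was at 989, 516 and 547 CPM in rats 61, 71 and 88, and at 578, 508 and 877 CPM in rats 64, 67 and 69. Its groups overlapped and its means were 684 ± 265 and 655 ± 196 CPM (SD, *n* = 3). In these estimates the lower Slc12a1 sum of the HD group was thus assigned to the transcript with the downstream cassette. Reads of variants without a listed transcript may be assigned to either coding transcript, so a difference in such a variant cannot be told apart from this. Only reads that touch the cassette exon can tell the coding transcripts apart, and the shares are RSEM's estimates from such reads. The shares were looked at after the gene levels had been seen, and they come from the rats that chose the gene, so no test was made. For the gene sum, the adjusted *P* value was 0.409 by edgeR and 0.110 by DESeq2, so neither tool called Slc12a1 here. The study reported lower Slc12a1 RNA by sequencing, but its qPCR found no diet effect on any NKCC2 isoform. Its immunohistochemistry, a measure of protein, showed more NKCC2 in the HD group. Which rats the qPCR used is not given in the sources used here.

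**Figure D3:**
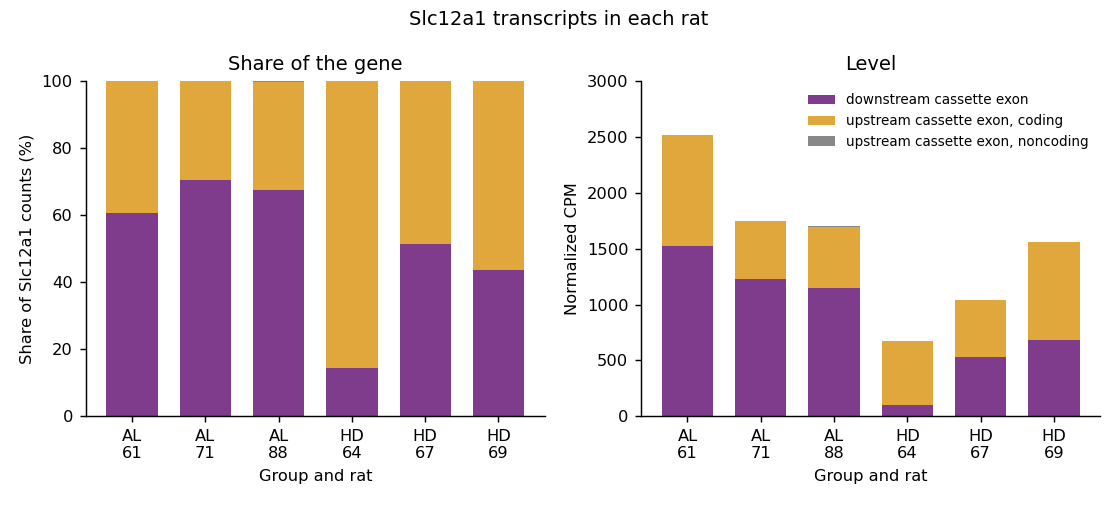
Stacked bars of the Slc12a1 transcripts in each rat, as a share of the gene's counts in percent (left) and as normalized CPM (right), with the transcript carrying the downstream cassette exon in purple and the coding transcript carrying the upstream cassette in yellow. The purple share is 60.7% to 70.4% in the AL rats and 14.4% to 51.3% in the HD rats, while the yellow level lies between 508 and 989 CPM in all 6 rats.

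The widely expressed cotransporters differed less between the diets. Slc12a2 encodes NKCC1, the basolateral sodium, potassium and chloride carrier of many cell types. It was at 39.8, 53.2 and 50.5 CPM in rats 61, 71 and 88 and at 36.1, 39.1 and 39.4 CPM in rats 64, 67 and 69. The groups did not overlap, but rat 61 of the AL group lay within 1 CPM of rats 67 and 69, and the edgeR log2 fold change was -0.32 (SE 0.13). Slc12a4 encodes KCC1, a potassium-chloride carrier used in cell volume control. It was at 44.1, 59.7 and 44.4 CPM in the AL rats and at 32.2, 32.7 and 49.3 CPM in the HD rats, and the groups overlapped through rat 69 (log2 fold change -0.37, SE 0.21). Slc12a7 encodes KCC4, a potassium-chloride carrier on the basolateral side of tubule cells. It was at 77.8, 115 and 115 CPM in the AL rats and at 81.1, 86.6 and 99.0 CPM in the HD rats, with rat 61 below all HD rats (log2 fold change -0.21, SE 0.17).

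The kinases showed smaller differences than Slc12a3 and Slc12a1, and the groups overlapped for all 4 of them. Wnk1, of which a short form without most of the kinase domain is known in the distal convoluted tubule, was at 153, 151 and 169 CPM in rats 61, 71 and 88 and at 225, 167 and 175 CPM in rats 64, 67 and 69. Only rat 64 stood apart, and the log2 fold change was 0.26 (SE 0.14), or 0.12 without that rat. Of the 3 Wnk1 transcripts in the files, 1 held 96.4% of the counts in each group on average, and none of them starts at a first exon of its own, so the short form could not be told from the long form. Wnk4, mutated in a familial form of hypertension with high potassium, was at 147, 93.7 and 128 CPM in the AL rats and at 113, 93.4 and 124 CPM in the HD rats. The lowest rats of both groups were alike, rats 61 and 88 of the AL group lay above every HD rat, and the log2 fold change was -0.16 (SE 0.19), or -0.01 without rat 61.

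Stk39, the gene of SPAK, was at 66.1, 57.3 and 69.8 CPM in rats 61, 71 and 88 and at 46.7, 45.3 and 59.3 CPM in rats 64, 67 and 69. Rat 69 alone reached into the AL range, and the log2 fold change was -0.35 (SE 0.14). Oxsr1, the gene of the related kinase OSR1, had the smallest log2 fold change of the 9 genes in size, at 76.1, 69.9 and 72.9 CPM in the AL rats and at 63.4, 69.0 and 72.1 CPM in the HD rats (log2 fold change -0.10, SE 0.10). Within rats, the log2 ratio of Stk39 to Oxsr1 counts was -0.18 ± 0.11 for AL and -0.44 ± 0.16 for HD, and that of Wnk4 to Wnk1 was -0.38 ± 0.32 and -0.78 ± 0.26 (SD, *n* = 3). The groups overlapped for both kinase ratios, whereas they did not for the ratio of Slc12a3 to Slc12a1.

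Across all tested genes, edgeR's quasi-likelihood test gave 0 genes with an adjusted *P* value of at most 0.05 (0%), and the smallest adjusted *P* value was 0.098. An unadjusted *P* value below 0.05 was found for 4.66% of the genes with a higher and 5.94% with a lower level in the HD group. Of the 9 members, 1 was counted among the higher (Slc12a3) and 3 among the lower genes (Slc12a1, Slc12a2 and Stk39). DESeq2, the tool named in the methods of the study, called 0.805% of the genes higher and 0.77% lower with an adjusted *P* value up to 0.05, and 1 member was among them, Slc12a3. All 3 HD rats lay above all 3 AL rats for 7.25% of the genes and below them for 7.01%, and the members held 1 gene of the first kind and 2 of the second. Because this comparison chose the members, nothing is read from their share beside these backgrounds. The median log2 fold change was -0.21 over the 9 members and 0.01 over all tested genes.

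**Figure D4:**
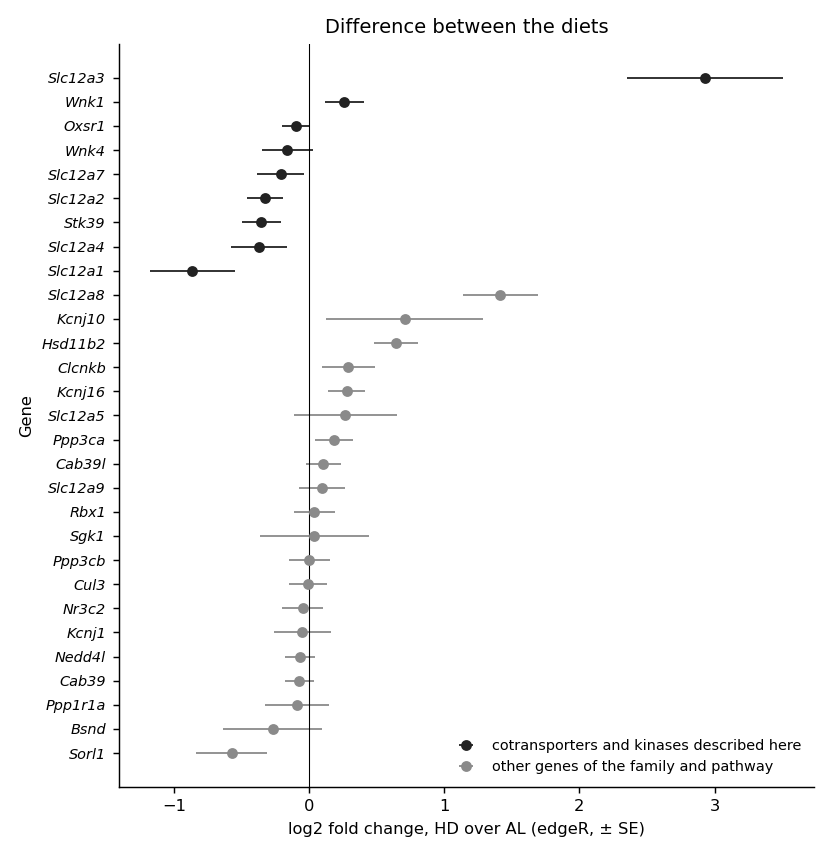
log2 fold changes of the HD over the AL group from edgeR, with standard errors as bars, for the 9 members (black) and 20 tested genes of the family and pathway list (grey). Slc12a3 is highest at 2.93 and Slc12a1 lowest of the members at -0.86. Most grey genes lie near 0, and the furthest from it are Slc12a8 at 1.42, Kcnj10 at 0.71 (SE 0.58), Hsd11b2 at 0.65 and Sorl1 at -0.57.

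Other genes of the family and of the kinase pathway were followed by a list of 26 genes that are not members. Of these, 24 were listed in the files, 22 could be tested, and edgeR gave 0 of them an adjusted *P* value of at most 0.05. At an unadjusted *P* value below 0.05 by edgeR, 2 had a higher and 0 a lower level in HD rats. Over all tested genes, 4.66% were higher and 5.94% lower at this limit. DESeq2 called the same 2 genes with an adjusted *P* value, beside 0.805% of all tested genes called higher and 0.77% lower. The list was chosen with earlier results of these data known, so nothing is read from its share. The median log2 fold change of the 22 was 0.04, with 13 above 0 and 9 below. Close to 0 were, among others, genes of the machinery that degrades or activates the kinases and cotransporters, namely the cullin gene Cul3 (log2 fold change -0.01, SE 0.14), the ubiquitin ligase gene Nedd4l (-0.07, SE 0.11) and Cab39, whose protein MO25 activates SPAK and OSR1 (-0.07, SE 0.11).

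Slc12a8, a relative of the cotransporters with a less settled transport function, was at 16.4, 10.6 and 11.1 CPM in rats 61, 71 and 88. In rats 64, 67 and 69 it was at 45.9, 32.1 and 23.8 CPM. The HD rats all lay above the AL rats, as for Slc12a3, but here rat 67 was above rat 69. The log2 fold change was 1.42 (SE 0.28) with an adjusted *P* value of 0.338 from edgeR and 0.0011 from DESeq2. Hsd11b2, the enzyme that keeps glucocorticoids off the mineralocorticoid receptor in the distal nephron, was at 231, 253 and 240 CPM in the AL rats and at 440, 292 and 401 CPM in the HD rats. Its log2 fold change was 0.65 (SE 0.16) with an adjusted *P* value of 0.390 from edgeR and 0.0359 from DESeq2, and its SD over the AL rats was 11.3 CPM.

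Among other genes of the SLC12 family, Slc12a9 was at 10.9 ± 1.20 and 11.6 ± 0.97 CPM (log2 fold change 0.09, SE 0.17, adjusted *P* = 0.90 by edgeR). Slc12a5, the potassium-chloride carrier of neurons, stood near 1 CPM in both groups. Wnk2 and Wnk3 did not reach the count minimum. Wnk2 lay between 0.0794 and 0.848 CPM in the 6 rats, and Wnk3 reached at most 0.0794 CPM and was at 0 in 3 rats, where a count of 0 allows up to 0.254 CPM (3 counts in rat 64, counting error only).

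The markers of the segments of Slc12a1 and Slc12a3 were set beside these genes. The 8 markers of the thick ascending limb were Umod, Cldn16, Cldn10, Ptger3, Kcnj1, Egf, Ppp1r1a and Irx1, and Kcnj1 and Ppp1r1a are also in the pathway list. All 8 were tested, 0 of them had an unadjusted *P* value below 0.05, and their log2 fold changes lay between -0.21 (Egf) and -0.05 (Kcnj1), with a median of -0.13. Umod, the gene of uromodulin, the most abundant protein of this segment, was at 3409, 3693 and 3584 CPM in rats 61, 71 and 88 and at 2719, 3036 and 4059 CPM in rats 64, 67 and 69. The groups overlapped for all 8 markers, and their summed level was 5254 to 5743 CPM in the AL rats and 4261 to 6248 CPM in the HD rats. All 8 log2 fold changes were below 0, and the sums of rats 64 and 67 (4261 and 4646 CPM), the rats with the lowest Slc12a1 levels, lay below every AL rat. The log2 fold change of Slc12a1 was -0.86, and the part of the segment markers in it was not tested. The other markers were Cldn16 (log2 fold change -0.17, SE 0.19), Cldn10 (-0.18, SE 0.15), Ptger3 (-0.14, SE 0.40), Ppp1r1a (-0.09, SE 0.24) and Irx1 (-0.08, SE 0.16).

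Of the 4 markers listed for the distal convoluted tubule, 2 could be tested. Calb1, the gene of the calcium buffer calbindin, was at 35.4, 113 and 54.3 CPM in rats 61, 71 and 88 and at 412, 140 and 290 CPM in rats 64, 67 and 69. As with Slc12a3, rat 64 was highest and rat 67 lowest of the HD rats, and the groups did not overlap. The log2 fold change of Calb1 was 2.05 (SE 0.51, adjusted *P* = 0.379 by edgeR and 0.0676 by DESeq2). Slc8a1, the gene of a sodium-calcium exchanger, was at 10.2, 36.4 and 20.5 CPM in the AL rats and at 59.0, 27.1 and 55.8 CPM in the HD rats, where rat 71 of the AL group stood above rat 67 (log2 fold change 1.07, SE 0.47, adjusted *P* = 0.473 by edgeR). Parvalbumin (Pvalb), a defining marker of the early distal convoluted tubule, was at 0.111 CPM in rat 71 and at 0 in the other 5 rats, and Trpm6 was not analysed here. The summed level of the list was 45.6 to 149 CPM in the AL rats and 167 to 471 CPM in the HD rats. Both testable markers of this list thus had higher means in the HD group together with Slc12a3, with overlapping groups for Slc8a1. Whether these genes mark only this segment was not examined. Their part in the Slc12a3 difference was not tested.

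**Figure D5:**
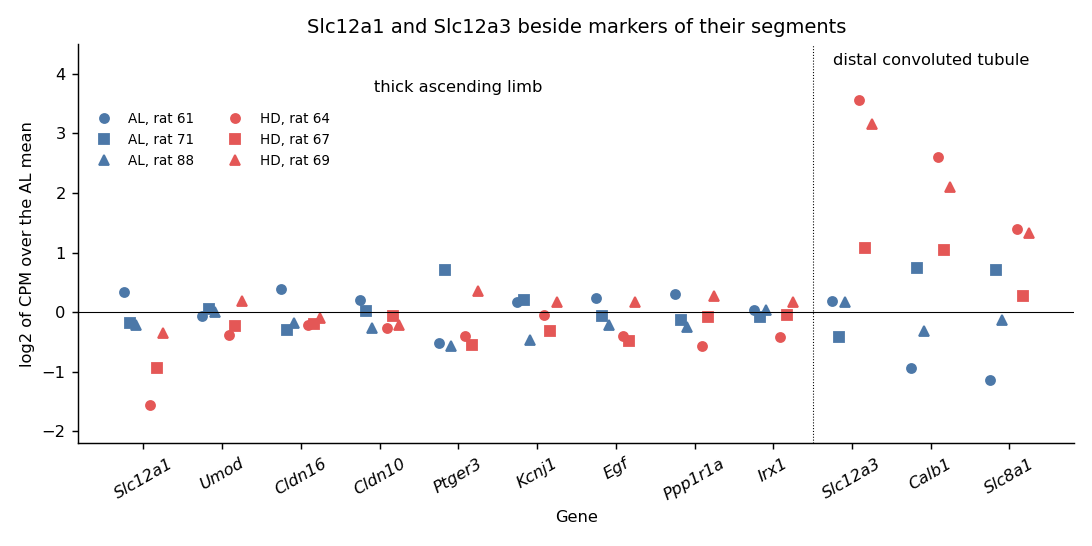
log2 of the normalized CPM over the mean of the AL group for Slc12a1 with the 8 markers of the thick ascending limb (left of the dotted line) and for Slc12a3 with the 2 testable markers listed for the distal convoluted tubule (right), 1 point for each rat. The HD rats (red) overlap the AL rats (blue) for every thick ascending limb marker, and lie above them for Slc12a3 and Calb1.

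Markers of other kidney zones and cell types also differed in level between the libraries. The 3 inner medulla markers had lower means in the HD group. Log2 fold changes were -1.42 for the urea transporter gene Slc14a2 and -1.02 for the water channel gene Aqp4. That of the aldose reductase gene Akr1b1 was -2.63. All 3 had an unadjusted *P* value below 0.05 by edgeR, beside 5.94% of all tested genes that were lower at this limit. Only Aqp4 had every HD rat below every AL rat. Rat 61 of the AL group was at 40.4 CPM for Slc14a2, where the HD rats ran from 20.3 to 67.1 CPM. For Akr1b1 rat 61 lay at 23.3 CPM, not above any HD rat. The summed level of the 3 markers was 182 to 695 CPM in the AL rats and 119 to 178 CPM in the HD rats, with Akr1b1 alone running from 23.3 to 390 CPM within the AL group. Of the 6 proximal tubule markers, 2 had an unadjusted *P* value below 0.05 by edgeR, beside 4.66% of all tested genes that were higher at this limit. These were Slc34a1 with a log2 fold change of 0.70 and Slc22a6 with 1.07. The others were Lrp2 (0.19), Slc5a2 (0.57), Aqp1 (0.22) and Cubn, which went the other way (-0.05). The groups overlapped for Lrp2, Slc5a2 and Cubn. The summed level of the list was 7617 to 9042 CPM in the AL and 10010 to 11400 CPM in the HD rats. The podocyte markers summed to 42.3 to 105 and 100 to 217 CPM. The 4 markers of immune cells each had a lower mean in the HD group (median log2 fold change -1.32, summed levels 213 to 338 and 125 to 280 CPM). Only Ptprc (-1.61) had every HD rat below every AL rat. Cd74, the largest part of the sum, had a log2 fold change of -0.27 (SE 0.30). The endothelial markers summed to 75.5 to 200 and 61.2 to 204 CPM, those of smooth muscle to 43.2 to 110 and 47.0 to 253 CPM, and those of fibroblasts to 56.8 to 149 and 33.8 to 77.6 CPM. No marker of these lists was at 0 in every rat. The part of these shifts in the Slc12a1 and Slc12a3 differences was not tested.

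Along the collecting duct, markers of the principal cells, the site of the epithelial sodium channel, summed to 1174 to 1307 CPM in the AL rats and 1032 to 1257 CPM in the HD rats. Among them Scnn1b, a subunit gene of that channel, had a log2 fold change of 0.53 (SE 0.17, adjusted *P* = 0.406 by edgeR), and the aquaporin gene Aqp3 one of -0.41 (SE 0.16, adjusted *P* = 0.432 by edgeR). Avpr2 had one of -0.54 (SE 0.19, adjusted *P* = 0.409 by edgeR). Of the 5 principal cell markers, 2 had log2 fold changes above 0 and 3 below. Of the intercalated cell markers, which summed to 775 to 954 CPM in the AL rats and 644 to 767 CPM in the HD rats, Slc26a4, the gene of the chloride-bicarbonate exchanger pendrin, had a log2 fold change of 1.20 (SE 0.21, adjusted *P* = 0.327 by edgeR and 2.1e-04 by DESeq2). The anion exchanger gene Slc4a1 had one of -0.56 (SE 0.17, adjusted *P* = 0.401 by edgeR and 0.0638 by DESeq2). Slc4a1, with means of 644 CPM for AL and 436 CPM for HD, made up most of the summed level. It was the only one of the 4 intercalated cell markers with a log2 fold change below 0, and the median of the 4 was 0.25.

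The genes whose levels most resembled Slc12a3 and Slc12a1 over the 6 rats were found by Pearson's correlation of log2 CPM among 9380 other genes with a mean of at least 5 CPM. These correlations are a description without a test, since the 6 rats include both diets and any gene with a like difference between the diets scores high. Of the 5 genes most like Slc12a3, 4 were Cpe (r = 0.985), Lpar3 (0.983), Slc13a3 (0.981) and Ctsb (0.981), and 126 genes had a correlation over 0.9. Slc13a3, the gene of a sodium-dicarboxylate carrier of the proximal tubule, was at 472, 428 and 496 CPM in rats 61, 71 and 88 and at 1006, 646 and 812 CPM in rats 64, 67 and 69. As for Slc12a3, the AL rats lay close together, and rat 64 was highest and rat 67 lowest of the HD rats. The log2 fold change of Slc13a3 was 0.82 (SE 0.18, adjusted *P* = 0.368 by edgeR), those of Cpe and Lpar3 were 0.83 and 0.80, and that of Ctsb was 0.23.

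The 5 genes most like Slc12a1 were Irx2 (r = 0.994), Daxx (0.991), Arglu1 (0.989), Myl12a (0.988) and Kiaa0415 (0.985), with 127 genes over 0.9. Irx2, a homeobox gene, was at 38.3, 30.6 and 32.1 CPM in rats 61, 71 and 88 and at 20.4, 24.8 and 29.2 CPM in rats 64, 67 and 69. Like Slc12a1 it was highest in rat 61 and lowest in rat 64, with rat 69 nearest to the AL range. Its log2 fold change of -0.44 (SE 0.17, adjusted *P* = 0.427 by edgeR) and those of the other 4 genes, from -0.43 (Daxx) to -0.12 (Kiaa0415), were smaller in size than that of Slc12a1.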

How the data were processed

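RNA of 6 rat kidneys was sequenced, 3 of the AL and 3 of the HD group, each as 1 library. The authors assigned the reads to UCSC transcripts of rn5 with RSEM 1.1.15 (version per the submitters' processing notes) and deposited, for each transcript, an estimated count, a posterior mean of that count and a TPM. The library kit does not mark strand. Filters on reads are not given in the sources used here.

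Estimated counts were summed by gene and rounded. Genes reaching a count of 30 in some rat were tested by edgeR's quasi-likelihood test (edgeR 4.0.16, R 4.3.3, TMM, diet as the only factor, Benjamini-Hochberg adjustment, threshold 0.05). The standard error is the absolute log2 fold change over the square root of F. DESeq2 1.42.0 was an alternative, beside other scalings, filters, count columns and leaving out each rat. Both tools were tested on simulated data. Total counts of 12499938 to 30466453 bound the precision, and edgeR estimated a common biological coefficient of variation of 0.242. The labels do not say more of the replicates than that each is a separate rat.

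The members, gene lists and marker lists were chosen with earlier results of these data known. Named were the 9 members, pathway genes with an unadjusted *P* value below 0.05 and Slc12a9, Wnk2 and Wnk3 whatever their value, every marker of the thick ascending limb and distal convoluted tubule, and the 5 genes most correlated (log2 of CPM plus 0.5) with Slc12a3 and with Slc12a1. Other genes were named after their values were seen. Results for some genes covered by these rules are not reported here. The kinase ratios and transcript shares were added after seeing the data. Klhl2 and Klhl3 of the pathway list were not analysed here. Promoter windows came from RefSeq (GRCr8) and matched all 9 members by symbol. Tables used pandas 2.3.3 and numpy 2.4.6 in Python 3.11.15, and plots matplotlib 3.10.9.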

Additional observations from a re-analysis of the deposited data

How the results depend on the processing

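The number of genes called was 0 with edgeR and 182 with DESeq2, 2 with every gene above 0 counts tested, and 0 to 4 when single rats were left out (2 without rat 61, 4 without rat 64, 2 without rat 67). In the pathway list it was 0 with edgeR under every setting and 2 with DESeq2. The log2 ratio of Slc12a3 to Slc12a1, HD minus AL, was 3.55 and lay between 2.76 and 4.31 without single rats, and at 3.79 as a difference of edgeR fold changes. The 9 members kept the sign of their log2 fold change in each of the 12 alternatives run. Library size alone moved the median of all genes from 0.01 to -0.07 (log2), and Slc12a3 to 2.86 and Slc12a1 to -0.91. Pathway genes lower at an unadjusted *P* value below 0.05 numbered 0, but 2 without rat 61 or rat 69 and by DESeq2. The share of the downstream cassette transcript of Slc12a1 differed by -37.1 to -18.7 percentage points without single rats. The log2 ratio of Wnk4 to Wnk1 lay between -0.55 and -0.24, and that of Stk39 to Oxsr1 between -0.34 and -0.18. No paired analysis was possible because each rat carries a number of its own that no rat of the other group shares. With 3 rats a group, spread within groups bounds what could be called.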
